A study of Mus musculus with 14 samples.

Results

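Myl4, Myl7, Sln, Mybphl, Stard10, Dkk3 and Bmp10 are genes whose transcripts are far more abundant in the atria of the adult mouse heart than in its ventricles, and they were followed here array by array in left ventricles as a check on the tissue taken. The 7 genes were found by their symbols (MYL4, MYL7, SLN, MYBPHL, STARD10, DKK3 and BMP10) in the deposited signal table, in which each has 1 of the 18138 rows. 6 of them passed the filter on dim rows and were tested. Bmp10 did not.

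The left ventricles came from male mice of 2 substrains, C57Bl/6J and C57Bl/6N, which were separated from a common inbred stock and have no engineered allele in this series. In each substrain, 4 arrays carried RNA of mice infused for 48 h, from a subcutaneous osmotic mini-pump, with angiotensin II, a peptide hormone that constricts vessels and loads the heart, and 3 arrays carried RNA of sham-operated controls. The dose is stated differently in 2 places, as 500 ng/kg each minute in the title and as 500 ng/kg each hour in the description of the design. The labels do not say that each sample came from a different mouse, so every p-value rests on a spread between samples that may be technical. Replicate numbers are names only. No batch, chip or scan date was given in the sources used here.

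The chambers of the heart build their contractile apparatus from partly different proteins. An atrial myocyte carries the atrial essential light chain (Myl4) and the atrial regulatory light chain (Myl7) on its myosin, where an adult ventricular myocyte carries Myl3 and Myl2. Sarcolipin (Sln) inhibits the calcium pump of the atrial sarcoplasmic reticulum, a part that phospholamban (Pln) plays in the ventricle. Mybphl encodes a protein related to the myosin-binding proteins C and H that is found in atrial myocytes. Stard10 is a lipid transfer protein with a START domain, Dkk3 is a secreted glycoprotein of the Dickkopf family, and Bmp10 is a ligand of the bone morphogenetic protein family whose expression in the adult heart is confined to the atria. Some of these genes, Myl4 and Myl7 among them, are also transcribed in the embryonic ventricle. An atrial remnant left on a dissected ventricle and transcription by the ventricular myocytes themselves would both raise these signals, and in bulk RNA fewer cells of a type and less RNA per cell cannot be told apart.

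The promoter windows below show what lies in front of the members that carry the results. RefSeq's GRCm38.p6 annotation gave the 250 bases before the transcription start for 5 of the 7 genes. 4 are printed 5′ to 3′ on the strand of the gene, for Myl4 (chr11:104550413-104550662, plus strand), Myl7 (chr11:5898783-5899032, minus strand), Mybphl (chr3:108364661-108364910, plus strand) and Stard10 (chr7:101316836-101317085, plus strand). Capitals mark matches, on either strand, to 4 short motifs of factors active in heart muscle or of the basal promoter.
Myl4: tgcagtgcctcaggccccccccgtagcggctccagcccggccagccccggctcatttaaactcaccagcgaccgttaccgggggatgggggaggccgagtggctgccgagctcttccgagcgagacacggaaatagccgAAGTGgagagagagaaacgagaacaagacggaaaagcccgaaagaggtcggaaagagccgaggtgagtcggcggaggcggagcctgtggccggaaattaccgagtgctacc
Myl7: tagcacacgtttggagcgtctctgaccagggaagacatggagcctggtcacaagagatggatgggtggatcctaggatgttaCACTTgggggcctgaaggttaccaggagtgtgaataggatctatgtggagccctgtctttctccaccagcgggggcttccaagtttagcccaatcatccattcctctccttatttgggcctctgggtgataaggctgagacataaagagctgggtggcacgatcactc
Mybphl: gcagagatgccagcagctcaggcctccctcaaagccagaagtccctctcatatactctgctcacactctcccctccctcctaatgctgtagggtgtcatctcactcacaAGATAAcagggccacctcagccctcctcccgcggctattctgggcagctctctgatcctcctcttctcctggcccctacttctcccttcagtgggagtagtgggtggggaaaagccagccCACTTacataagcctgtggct
Stard10: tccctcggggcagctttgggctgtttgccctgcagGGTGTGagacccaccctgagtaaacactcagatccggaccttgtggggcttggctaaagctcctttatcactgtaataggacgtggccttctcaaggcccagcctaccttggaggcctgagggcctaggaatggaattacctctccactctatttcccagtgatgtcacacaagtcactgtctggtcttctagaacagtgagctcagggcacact

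The motifs searched were AGATAA for GATA factors, GGTGTG for T-box factors, AAGTG for Nkx2-5 and the TATA box TATAAA, and none of these overlapped another in the windows shown. AAGTG was present in the Myl4, Myl7 and Mybphl windows, in Myl7 and Mybphl as its reverse complement, and it is in 40.7% of all 32851 windows of that length. AGATAA was present in the Mybphl window, 141 bases before the start, and in 9.99% of all windows. The unprinted Bmp10 window had AGATAA at 2 places. GGTGTG, which is in 16.3% of all windows, was found in the Stard10 window alone among the 5. TATAAA, with a share of 12.4%, was in none of the 5. The matches are letters in a window and not binding sites, and the 4 printed windows share none of the motifs searched. Only these exact letters were searched, and not variant sites of the same factors.

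Facts of the whole series that bear on these values are few. The median deposited signal of an array lay between 80.8 and 112, each array detected 46.4% to 49.3% of its rows, and 9408 rows were tested. Normalised arrays of one group correlated at 0.976 or more. When arrays were weighted by how well they followed the fitted group means, C57Bl/6J angiotensin II 1 had the lowest weight (0.17) and C57Bl/6N sham 1 the next lowest (0.33), against 0.52 or more for the other 12. Results that changed without C57Bl/6N sham 1, or without both arrays, are given with and without them. Leaving out C57Bl/6J angiotensin II 1 alone enters only the ranges and counts over alternatives. Myl2, the regulatory light chain of both ventricles, was above background on all 14 arrays. It stood at the top of the normalised scale (15.61 on the log2 scale) on 11 of them, so a rise in it could not have been seen and it gives no measure of how much other tissue was present.

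All 6 tested members were above background on all 14 arrays, whatever the treatment. Bmp10 was above background on none: its detection p-value was between 0.163 and 0.632, and its deposited signal ran from 57.2 to 83.4, in the range of the array background (means 60.8 to 74.2). Its transcript was therefore not detectable at this signal over background, and no direction is given for it. Values below are normalised log2 signal, on which 1 unit is a doubling. Levels are compared for the same gene between arrays, and not between genes, since probes differ in brightness.

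**Figure D1:**
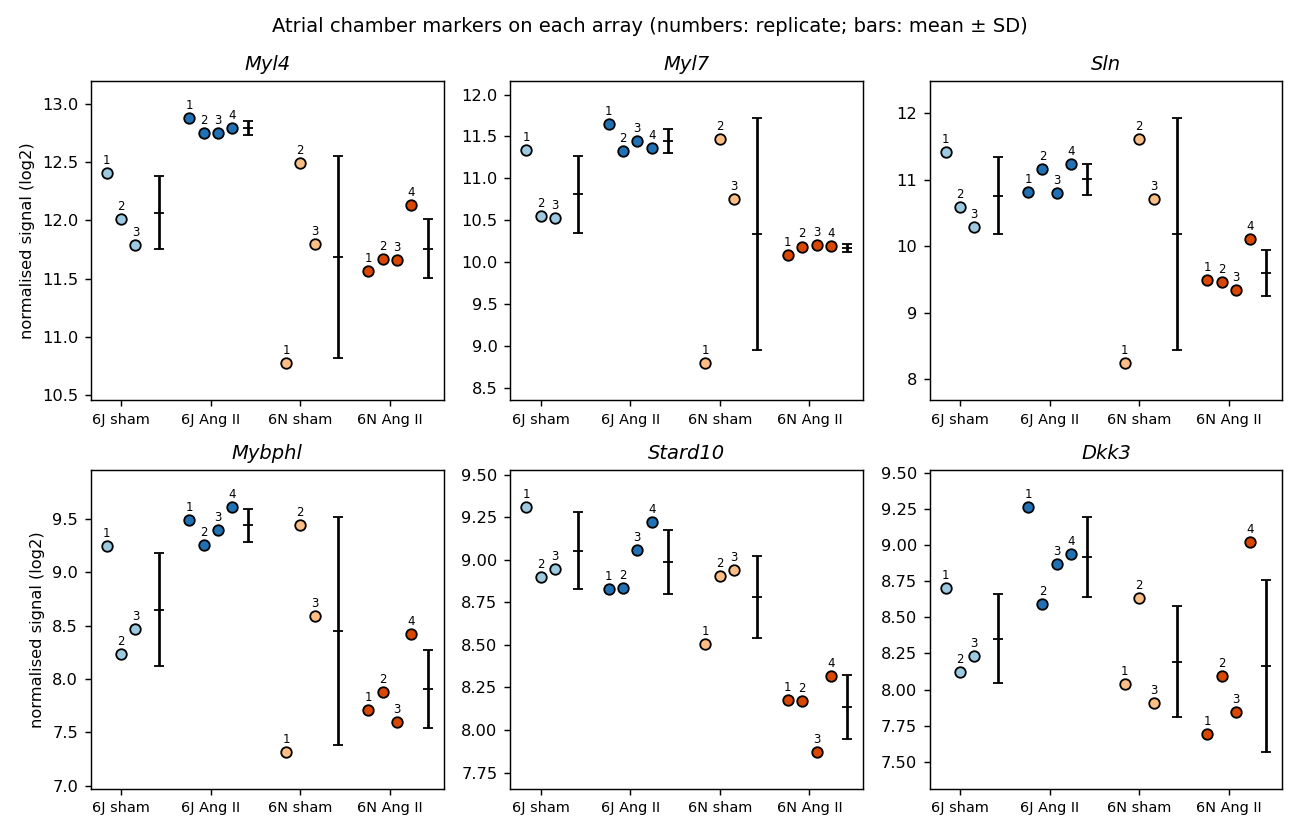
Normalised log2 signal of the 6 tested atrial markers on each of the 14 arrays (points, numbered by replicate), with the mean and SD of each group beside them; the y axis of each panel has its own range and does not start at 0. For Myl4, Myl7, Sln and Mybphl the 4 C57Bl/6J angiotensin II arrays lie above the 4 C57Bl/6N angiotensin II arrays, and the C57Bl/6N sham arrays are spread most widely.

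The C57Bl/6N sham arrays differed widely from one another in 4 of these genes. Sln was at 8.24, 11.61 and 10.71 on sham 1, 2 and 3 of that group (mean 10.19 ± 1.74 SD, n = 3), so that sham 2 had 10.3 times the signal of sham 1. Myl7 was at 8.79, 11.47 and 10.75 (10.34 ± 1.39), a 6.4-fold span. Mybphl was at 7.32, 9.44 and 8.59 (8.45 ± 1.07), a 4.37-fold span. Myl4 was at 10.77, 12.49 and 11.80 (11.69 ± 0.87), a 3.30-fold span. In all 4 of these genes sham 1 was the lowest of the 14 arrays, sham 2 the highest of its group and sham 3 between them. Stard10 (8.51, 8.90 and 8.94) spanned 1.35-fold, and Dkk3 (8.04, 8.63 and 7.91) spanned 1.66-fold with sham 3 lowest. The SDs of Sln, Myl7, Mybphl and Myl4 in this group were larger than those of 99.8% or more of all tested rows, against 76.4% for Stard10 and 94.0% for Dkk3.

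The C57Bl/6J sham arrays had smaller spans in Sln, Myl7, Mybphl and Myl4. Sln was at 11.41, 10.58 and 10.28 on sham 1, 2 and 3 (10.76 ± 0.58, n = 3), a 2.18-fold span. Mybphl was at 9.25, 8.23 and 8.47 (8.65 ± 0.53), Myl7 at 11.34, 10.55 and 10.53 (10.81 ± 0.46), and Myl4 at 12.40, 12.01 and 11.78 (12.07 ± 0.31). Sham 1 was the highest of the group for all 6 members, Stard10 (9.31, 8.90 and 8.95) and Dkk3 (8.70, 8.12 and 8.23) included. SDs of these 6 genes here were above those of 87.5% to 99.6% of tested rows.

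Arrays given angiotensin II lay closer together than sham arrays of the same substrain, except in C57Bl/6N for Dkk3. In C57Bl/6J, Myl4 was at 12.88, 12.75, 12.75 and 12.79 (12.79 ± 0.06, n = 4), an SD larger than in only 6.53% of tested rows. Myl7 was at 11.65, 11.33, 11.44 and 11.37 (11.44 ± 0.14), Mybphl at 9.49, 9.25, 9.40 and 9.62 (9.44 ± 0.15), and Sln at 10.82, 11.16, 10.79 and 11.24 (11.01 ± 0.23). Stard10 was at 8.83, 8.84, 9.06 and 9.23 (8.99 ± 0.19), and Dkk3 at 9.27, 8.59, 8.87 and 8.94 (8.92 ± 0.28). Each of these arrays was high in the light chains and Mybphl, including C57Bl/6J angiotensin II 1, which had the lowest weight in the series.

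In C57Bl/6N given angiotensin II, Myl7 was at 10.09, 10.18, 10.20 and 10.19 (10.17 ± 0.05, n = 4). Myl4 was at 11.57, 11.67, 11.66 and 12.13 (11.76 ± 0.25), Sln at 9.49, 9.47, 9.34 and 10.11 (9.60 ± 0.35), and Mybphl at 7.71, 7.88, 7.60 and 8.42 (7.90 ± 0.37). Stard10 was at 8.17, 8.17, 7.87 and 8.32 (8.13 ± 0.19), the 4 lowest values of the series for that gene. Dkk3 was at 7.69, 8.10, 7.85 and 9.02 (8.16 ± 0.60), with angiotensin II 4 above the other 3 by more than their own range. The SDs of Dkk3, Mybphl and Sln in this group were still above those of 99.3%, 95.6% and 94.8% of tested rows, against 7.51% for Myl7. That array was the highest of its group in 5 of the 6 members, Myl7 being the exception.

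Ordered by group mean, Myl7, Sln, Mybphl and Dkk3 ran from C57Bl/6J angiotensin II through C57Bl/6J sham and C57Bl/6N sham to C57Bl/6N angiotensin II. In Myl4 the C57Bl/6N groups changed places, at 11.76 with angiotensin II and 11.69 in sham. Stard10 began with C57Bl/6J sham (9.05) and C57Bl/6J angiotensin II (8.99), followed by C57Bl/6N sham (8.78) and C57Bl/6N angiotensin II (8.13). Neighbouring groups in these orders overlapped, except for Myl4 and Mybphl between C57Bl/6J angiotensin II and C57Bl/6J sham and for Stard10 between C57Bl/6N sham and C57Bl/6N angiotensin II.

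**Figure D2:**
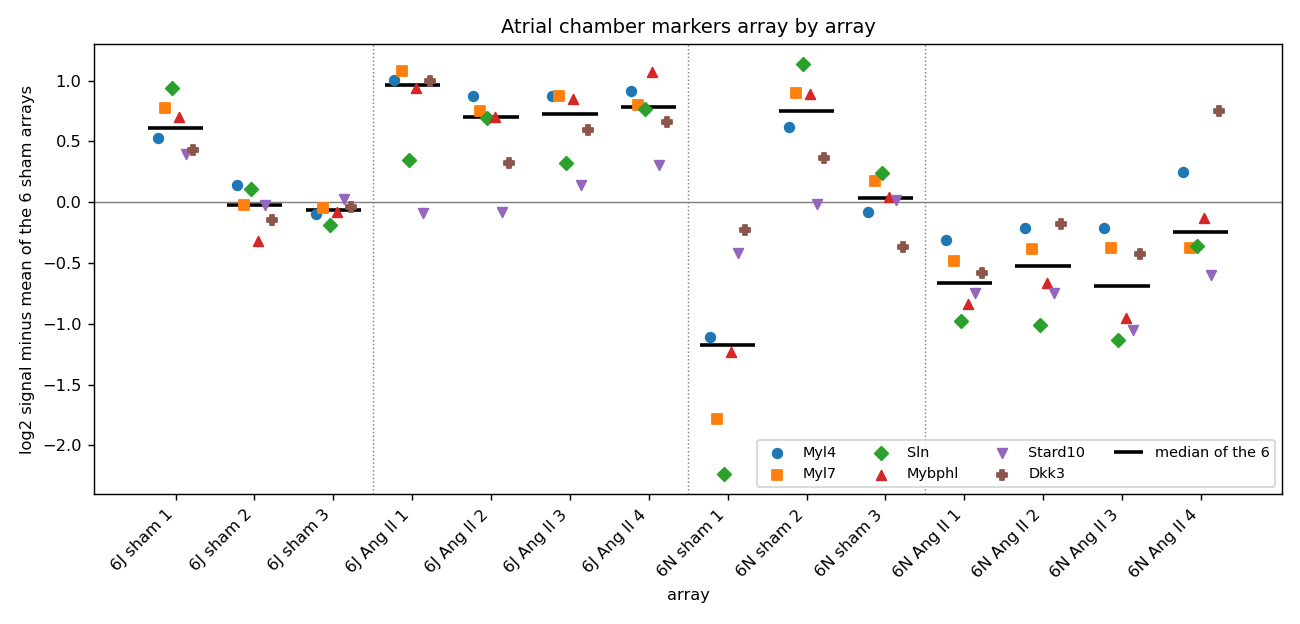
Normalised log2 signal of each of the 6 tested atrial markers on each array, minus that gene's mean over the 6 sham arrays (y axis), with the median of the 6 as a black bar; dotted lines separate the groups. The bars run from 0.70 to 0.97 on the C57Bl/6J angiotensin II arrays and from -0.69 to -0.24 on the C57Bl/6N angiotensin II arrays, while the C57Bl/6N sham arrays run from -1.17 to 0.75.

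The median of the 6 tested members, taken per array after subtracting each gene's sham mean, describes this profile. It was 0.61, -0.02 and -0.06 on C57Bl/6J sham 1, 2 and 3, and 0.97, 0.70, 0.72 and 0.78 on the 4 C57Bl/6J angiotensin II arrays. In C57Bl/6N it was -1.17, 0.75 and 0.03 on sham 1, 2 and 3, and -0.66, -0.53, -0.69 and -0.24 on the 4 angiotensin II arrays. The lowest treated C57Bl/6J array thus lay 0.94 above the highest treated C57Bl/6N array, whereas the 3 C57Bl/6N sham arrays reached from below all 8 treated arrays to within the range of the treated C57Bl/6J arrays. On the deposited values and after median scaling the separation was 0.88 and 0.93. Similar medians of atrial markers had already been seen in these data when the genes were chosen, so this profile is a description and is given no test.

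Under angiotensin II, all 6 tested members were lower in C57Bl/6N than in C57Bl/6J ventricles, and the groups did not overlap in 5 of them, Dkk3 being the exception. Among all tested rows 7.26% were lower without overlap. 3 of the 6 passed the test, where 9.24% of all tested rows passed and 3.78% passed as lower. Because the medians per array were known when the genes were chosen, these counts and p-values describe these arrays. They are no independent support, and the same holds for the comparisons below. Mybphl was 2.90-fold lower (log2 change -1.54 ± 0.34 SE, adjusted p = 0.0154), Myl4 2.05-fold lower (-1.04 ± 0.26, adjusted p = 0.0251) and Stard10 1.81-fold lower (-0.85 ± 0.14, adjusted p = 0.0037). The others missed the threshold: Sln was at -1.40 ± 0.50 (adjusted p = 0.0920), Myl7 at -1.28 ± 0.39 (0.0525) and Dkk3 at -0.75 ± 0.25 (0.0770). The median over the 6 members was -1.16, against -0.01 over all tested rows.

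How many of the 6 passed depended on the arrays, on the processing and on whose spread was used. The fit estimates a gene's spread over all 4 groups, and the C57Bl/6N sham arrays contribute most of it for Myl4, Myl7, Sln and Mybphl, but not for Stard10 or Dkk3. With only the 8 angiotensin II arrays in the fit 5 passed, Myl7 (adjusted p = 0.000814) and Sln (0.00857) included and Dkk3 not, although only 249 rows passed in all against 869. 5 also passed without C57Bl/6N sham 1, without C57Bl/6N sham 2, and with both arrays of lowest weight left out. Without C57Bl/6N angiotensin II 1 or 3 only Stard10 passed, with Myl4 at adjusted p = 0.0871 and 0.0818 and Mybphl at 0.0615 and 0.0594. Myl4 also missed the threshold without C57Bl/6N angiotensin II 2 (0.0616) and without C57Bl/6J angiotensin II 4 (0.0575). With all arrays, Myl4 missed it with the background taken from all rows (0.0606) and with no filter on dim rows (0.0641). Myl7 passed on the deposited values (0.0458), after median scaling (0.0476) and with a filter at detection p under 0.01 (0.0495). Every member stayed lower in C57Bl/6N in all 24 alternatives, and Stard10 passed in each of them.

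**Figure D3:**
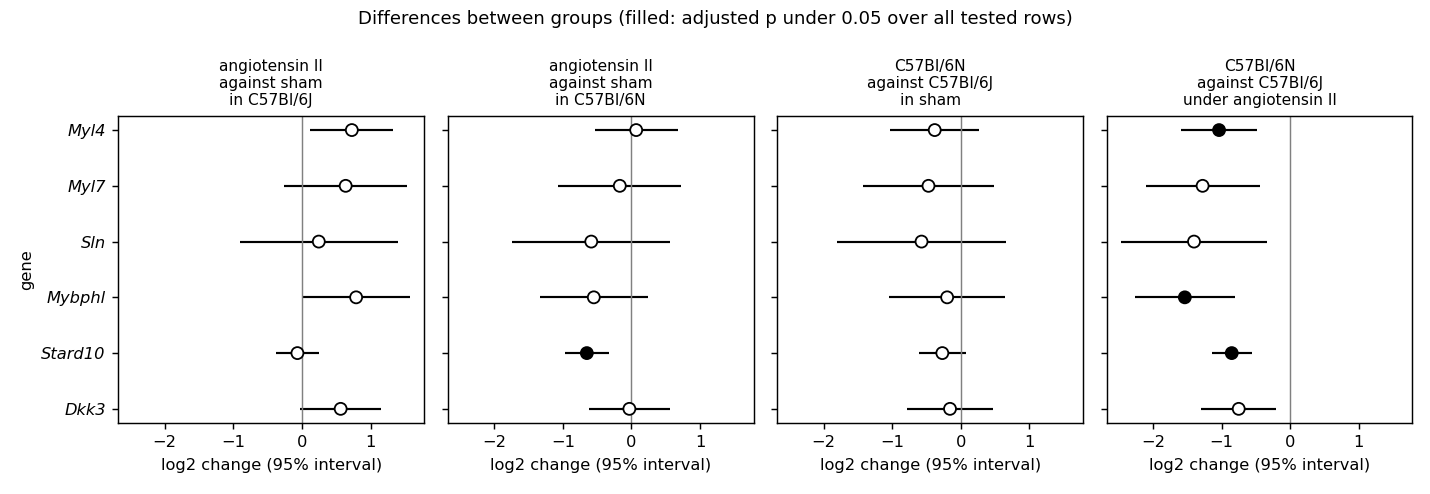
Log2 change (x axis) of the 6 tested atrial markers in 4 comparisons, with 95% intervals from the limma fit; filled points have an adjusted p under 0.05 over all 9408 tested rows. In the rightmost panel all 6 points lie below 0 and Myl4, Mybphl and Stard10 are filled, while in the sham panel every interval spans 0.

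In sham ventricles no member differed between the substrains at the threshold. All 6 means were lower in C57Bl/6N, from -0.16 for Dkk3 to -0.57 for Sln, with a median of -0.33 against 0.01 over all tested rows. Adjusted p-values ran from 0.729 to 0.930 in the limma fit, none had an unadjusted p under 0.05, and all 6 groups overlapped. Of all tested rows, 0.0213% passed and 15.8% did not overlap. For 5 of the 6 the direction rested on single arrays. Without C57Bl/6N sham 1 the differences were 0.08 for Myl4, 0.30 for Myl7, 0.40 for Sln and 0.37 for Mybphl. Without C57Bl/6J sham 1 they were 0.10 for Mybphl and 0.017 for Dkk3. Stard10 stayed below 0 in all 24 alternatives (-0.35 to -0.13). The intervals were wide: that of Sln ran from -1.81 to 0.66 and that of Stard10 from -0.61 to 0.07.

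Angiotensin II against sham in C57Bl/6J gave no member past the threshold, where 1.37% of all tested rows passed. 5 of the 6 changes were above 0, with a median of 0.60 against -0.01 over all rows. Mybphl was at 0.79 ± 0.37 SE (adjusted p = 0.326) and Myl4 at 0.73 ± 0.28 (0.238), and for both of these every treated array was above every sham array, as held for 7.94% of tested rows. For Mybphl that gap was only 0.01. Myl7 was at 0.64 ± 0.42 (0.496), Dkk3 at 0.56 ± 0.27 (0.343), Sln at 0.25 ± 0.54 (0.865) and Stard10 at -0.07 ± 0.15 (0.870). Myl4 passed when arrays were weighted (0.76, adjusted p = 0.0366) and in none of the other 23 alternatives.

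In C57Bl/6N, Stard10 fell 1.57-fold with angiotensin II (log2 change -0.65 ± 0.15, adjusted p = 0.00856), and its groups did not overlap. It was 1 of 6, where 17.4% of all tested rows passed, 7.92% passed as lower, and 15.5% were lower without overlap. It passed in all 24 alternatives. The other 5 overlapped and did not pass: Myl4 was at 0.07 ± 0.28, Dkk3 at -0.03 ± 0.27, Myl7 at -0.17 ± 0.42, Mybphl at -0.55 ± 0.37 and Sln at -0.58 ± 0.54 (adjusted p from 0.339 to 0.958). The median was -0.36 against -0.04 over all rows. Here again C57Bl/6N sham 1 decided the outcome. Without it, or with both arrays of lowest weight left out, 4 of the 6 were lower past the threshold, with Sln at -1.56 (adjusted p = 0.00982 without it), Mybphl at -1.12 (0.0296) and Myl7 at -0.94 (0.0193) beside Stard10. Myl4 turned to -0.39 and did not pass. Without C57Bl/6N sham 2 instead, Myl7 (0.40), Sln (0.12) and Dkk3 (0.19) were above 0.

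The difference between the substrains' responses was below 0 for all 6 members and passed for none, while 0.0106% of all tested rows passed. Mybphl was at -1.34 ± 0.52 (adjusted p = 0.225) and Stard10 at -0.58 ± 0.21 (0.204), the only members with an unadjusted p under 0.05. The other 4 were between -0.59 and -0.83, with adjusted p-values from 0.391 to 0.583. The median was -0.73 against -0.02 over all rows. With arrays weighted, 5 of the 6 passed, when 569 rows passed in all. A difference between the responses in these genes was thus seen only where the arrays were weighted.

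Averaged over treatments, all 6 members were lower in C57Bl/6N, with a median of -0.79 against 0.00 over all rows and each with an unadjusted p under 0.05. Stard10 alone passed (-0.56 ± 0.11, adjusted p = 0.0140), where 1.99% of rows passed and 0.989% passed as lower. The sizes ran from -0.46 for Dkk3 to -0.99 for Sln. The count was 0 without C57Bl/6J sham 1, 4 without C57Bl/6N sham 2 or without C57Bl/6N angiotensin II 4, and 2 with weights. Averaged over substrains, angiotensin II changed only Stard10 (-0.36 ± 0.11, adjusted p = 0.0321), where 15.8% of rows passed and 7.48% as lower. It missed the threshold without C57Bl/6J sham 1, C57Bl/6J angiotensin II 2, C57Bl/6N sham 2, C57Bl/6N sham 3, C57Bl/6N angiotensin II 1 or C57Bl/6N angiotensin II 3. Without C57Bl/6N sham 2, Myl4 passed as higher instead (0.60, adjusted p = 0.0266). The comparisons share arrays, so these counts are not independent of those above.

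Values of the members were correlated from array to array once each group's mean had been removed. Since the genes were chosen with their medians per array known, the p-values that follow describe these arrays and are no independent support. Over the 15 pairs of the 6 tested members and the 14 arrays, Pearson's r had a median of 0.70 and ranged from 0.38 to 0.96. By permutation of arrays within groups (two-sided, 100000 draws), 9 pairs passed a Benjamini-Hochberg adjusted p of 0.05 by Pearson's r and 10 by Spearman's rho. The closest pair was Myl4 with Sln (r = 0.963, rho = 0.842, permutation adjusted p = 0.0220 and 0.0215), followed by Myl4 with Mybphl (r = 0.955, rho = 0.868, permutation adjusted p = 0.0226 and 0.0215). Myl7 with Sln had r = 0.942 and rho = 0.653 and did not pass (permutation adjusted p = 0.0676 and 0.117). Mybphl with Stard10 had r = 0.771 and rho = 0.815 (permutation adjusted p = 0.0166 and 0.0215). Dkk3 was the loosest, with r = 0.378 and rho = 0.486 to Myl7 (permutation adjusted p = 0.233 and 0.115).

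**Figure D4:**
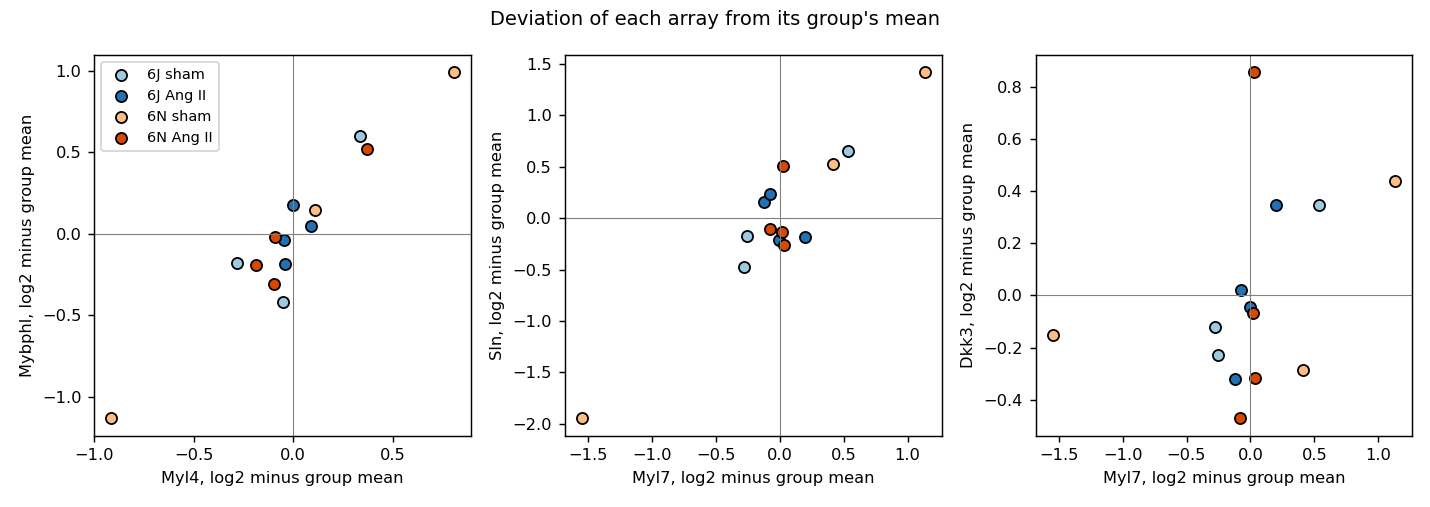
Deviation of each array from its group's mean (log2) for 3 pairs of atrial markers, Mybphl against Myl4, Sln against Myl7 and Dkk3 against Myl7, coloured by group. In the first 2 panels C57Bl/6N sham 1 and sham 2 lie at opposite far ends (-0.92 and 0.81 in Myl4), and the Dkk3 panel is the loosest (r = 0.378).

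The pairs' r changed unequally when the 2 most distant arrays were left out. Leaving out the 2 arrays farthest from the median of the pair's first-named gene gave a median r of 0.69 and a range from 0.32 to 0.85. Those arrays were C57Bl/6N sham 1 and 2 for 14 of the 15 pairs. The group means removed were still those of all 14 arrays, so these values are not free of the arrays left out. Myl4 with Sln was then at 0.840 and Myl4 with Mybphl at 0.855, while Myl4 with Myl7 went from 0.937 to 0.689 and Myl7 with Sln from 0.942 to 0.678. Other pairs went up, among them Myl4 with Dkk3 (0.608 to 0.783), Mybphl with Dkk3 (0.663 to 0.785) and Mybphl with Stard10 (0.771 to 0.815). The number of pairs that passed rested on single arrays: it was 0 without C57Bl/6J sham 1, 1 without C57Bl/6N angiotensin II 4 and 2 without C57Bl/6N sham 2, and between 8 and 11 without any other array. The median r stayed between 0.67 and 0.75 throughout.

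The median of other genes with atrial enrichment did not follow this profile. Of 13 such genes on a list, 11 had a row and 8 were tested. Among those tested, Pam was above background on 8 arrays and Cacna1d on 10. On C57Bl/6N sham 1, where the members' median was -1.17, the median of the 8 tested genes was 0.05. On the C57Bl/6J angiotensin II arrays it lay between -0.05 and 0.08. Nppa, which encodes atrial natriuretic peptide, also responds to load in the ventricle: it rose 2.25-fold in C57Bl/6J (1.17 ± 0.25, adjusted p = 0.0314) and 2.77-fold in C57Bl/6N (1.47 ± 0.25, adjusted p = 0.0015). Nppa was at 13.00 on C57Bl/6N sham 1, its lowest array, and at 14.35 and 14.43 on the other 2 of that group. Nppb, another natriuretic peptide gene, was also lowest there (11.77, against 13.01 and 13.57).

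Channel and junction genes of atrial muscle did not share the members' profile, but they were dim. Deposited signals were 111 to 235 for Kcna5, 145 to 296 for Kcnj3 and 136 to 231 for Gja5. Array background means were 60.8 to 74.2, and the processing understates the change of dim genes. Kcna5, an atrial potassium channel, was at 7.21, 6.75 and 6.11 on C57Bl/6N sham 1, 2 and 3, an order unlike that of the members, and it passed no test (0.52 ± 0.21, adjusted p = 0.247 in C57Bl/6J and 0.18 ± 0.21 in C57Bl/6N). Gja5, which encodes a gap junction connexin of the atria and conduction system, was between 6.70 and 7.27 on all 14 arrays and did not pass. Kcnj3, a subunit of the acetylcholine-gated potassium channel, fell in C57Bl/6N (-0.46 ± 0.12, adjusted p = 0.0199), as did Hey1, a transcriptional repressor of the Notch pathway (-0.67 ± 0.12, adjusted p = 0.0019). Hey1 was also lower in C57Bl/6N under angiotensin II (-0.56 ± 0.11, adjusted p = 0.00864). Kcnj5, the partner subunit of Kcnj3, was above background on 0 arrays, and Nr2f2, a regulator of atrial identity, on 1 of 14.

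Medians of ventricle-enriched genes and of genes of both chambers moved little on the arrays where the members moved most. Single ventricle-enriched genes ran from -0.26 to 0.22 on C57Bl/6N sham 1 and from -1.15 to 1.31 on C57Bl/6J angiotensin II 1. The median of 11 ventricle-enriched genes lay between -0.28 and 0.06 on every array, and it was 0.04 on C57Bl/6N sham 1. Myl3, the ventricular essential light chain that Myl4 replaces in the atrium, was at 15.37, 15.26 and 15.50 on C57Bl/6N sham 1, 2 and 3. It changed in neither substrain (adjusted p = 0.932 and 0.167). Its values, 14.95 to 15.50, lay close to the top of the normalised scale (15.61), which limits how far a rise could show. Pln, the ventricular counterpart of Sln, was at 13.10, 12.74 and 12.94 on the same C57Bl/6N sham arrays and did not pass either (0.973 and 0.147). Kcnip2, a subunit of the transient outward potassium channel, fell in C57Bl/6N (-1.15 ± 0.27, adjusted p = 0.0096), as did Kcnd2 of the same channel (-0.51 ± 0.15, adjusted p = 0.0331). The slow myosin heavy chain Myh7 rose in C57Bl/6N (2.19 ± 0.20) and in C57Bl/6J (1.09 ± 0.20, adjusted p = 0.0139). Myh6, the fast myosin heavy chain that both chambers of the mouse heart use, did not pass (0.05 in C57Bl/6J and -0.28 in C57Bl/6N). Of 13 genes of both chambers, Tpm1 rose and Ckm fell in C57Bl/6N and none changed in C57Bl/6J. Under angiotensin II, Kcnd2 (-0.71 ± 0.14, adjusted p = 0.0101) and Tnni3, a gene of both chambers (-0.42 ± 0.11, 0.0331), were lower in C57Bl/6N than in C57Bl/6J. Myh7 (1.62 ± 0.18, adjusted p = 0.00033) and the ventricle-enriched Irx3 (0.73 ± 0.10, 0.00153) were higher there. No other gene of these lists passed in that comparison.

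Relatives of the members changed in both directions. Of the 8 tested myosin light chains and their kinase other than Myl4 and Myl7, 2 rose in each substrain and none fell. Myl1 rose in both (0.82 ± 0.12, adjusted p = 0.0068 in C57Bl/6J and 0.87 ± 0.12, 0.0005 in C57Bl/6N), Myl12a rose in C57Bl/6J (0.70 ± 0.14, 0.0233) and Myl6 in C57Bl/6N (0.82 ± 0.16, 0.0034). Myl12a was the one of these that was lower in C57Bl/6N under angiotensin II (-0.45 ± 0.13, adjusted p = 0.0383). Mybpc2, a myosin-binding protein C, rose in both substrains (0.89 ± 0.18, 0.0278 and 0.83 ± 0.18, 0.0065), while the cardiac isoform Mybpc3 passed in neither. Among the calcium pump and its regulators, Atp2a2, the pump that sarcolipin inhibits, did not pass (0.709 in C57Bl/6J and 0.555 in C57Bl/6N), Hrc fell in C57Bl/6N (-0.74 ± 0.14, 0.00315) and Sri rose there (0.45 ± 0.11, 0.0105). Under angiotensin II, Hrc (-0.63 ± 0.13, adjusted p = 0.0115) and the pump isoform Atp2a3 (-0.58 ± 0.14, 0.0183) were lower in C57Bl/6N than in C57Bl/6J, as the members were. In the START family Stard7 fell in C57Bl/6N (-0.43 ± 0.10, adjusted p = 0.0103), and Stard3, Stard4, Stard5, Stard8 and Stard13 did not pass. None of the Dickkopf genes Dkk1, Dkk2 and Dkk4 was above background on any array, and of 12 tested genes of bone morphogenetic protein signalling none passed in either substrain, while Id1, a target of that pathway, was lower in C57Bl/6N under angiotensin II (-0.65 ± 0.13, adjusted p = 0.0107).

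**Figure D5:**
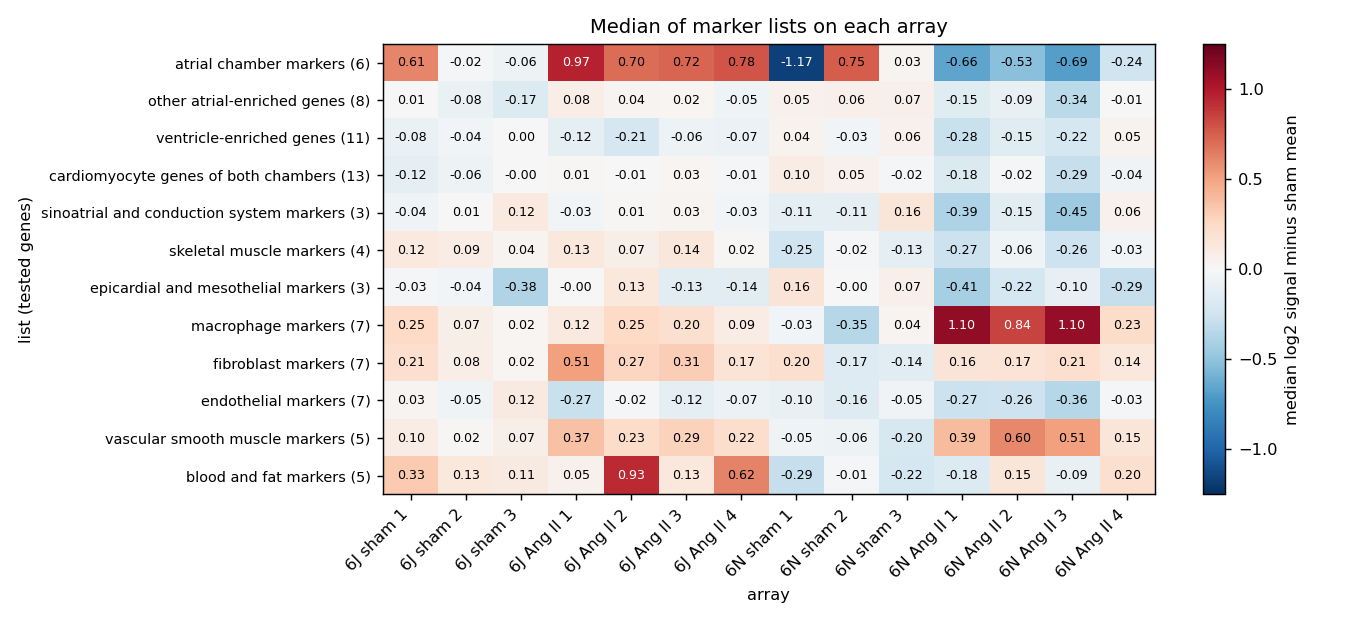
Median over the tested genes of the members and of 11 of the 18 marker lists (rows, number of genes in brackets) on each of the 14 arrays (columns), as log2 signal minus the mean of the 6 sham arrays; red is higher and blue lower, on the scale at the right. The members' row ranges from -1.17 to 0.97, the macrophage markers reach 1.10 on C57Bl/6N angiotensin II 1 and 3, the blood and fat markers 0.93 on C57Bl/6J angiotensin II 2, and the vascular smooth muscle markers 0.60 on C57Bl/6N angiotensin II 2.

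Many markers of other tissue that a dissection could include were not above background, but blood and some fat markers were. Of 10 skeletal muscle markers, 7 were above background on no array, among them the fast myosin heavy chains Myh1, Myh2 and Myh4. Of 7 measured markers of the sinoatrial node and conduction system 5 were above background nowhere, among them Isl1 and Tbx18. Tbx3, a conduction system transcription factor, fell in C57Bl/6N (-0.51, adjusted p = 0.0110). Of 8 measured epicardial and mesothelial markers, Upk1b, Msln, Krt18, Krt19 and Lrrn4 were above background on no array, and Aldh1a2 rose in C57Bl/6N (1.57). The summed level of the 3 tested genes of that list was 301 to 344 in C57Bl/6J sham, 339 to 375 in C57Bl/6J with angiotensin II, 333 to 353 in C57Bl/6N sham and 362 to 482 in C57Bl/6N with angiotensin II.

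Of 8 blood and fat markers, 5 were tested and were above background on all 14 arrays: the globin genes Hba-a1 and Hbb-b1, the haem synthesis gene Alas2, the lipid droplet gene Cidea and Cfd, the adipocyte product adipsin. Cfd differed between these groups in the direction of most members. It was at 1.01 ± 0.32 with angiotensin II in C57Bl/6J (adjusted p = 0.147) and at -0.11 ± 0.32 in C57Bl/6N (0.848). Under angiotensin II it was lower in C57Bl/6N than in C57Bl/6J (-1.51 ± 0.29, adjusted p = 0.00910). The other 4 passed in none of these comparisons. On C57Bl/6N sham 1, where the members' median was -1.17, no tested gene of this list was below -0.59, Cfd included. Ucp1 and Plin1, of brown fat and of adipocytes, were above background on 0 arrays and the adipocyte gene Adipoq on 1. The list's median was 0.05 to 0.93 on the C57Bl/6J angiotensin II arrays, -0.18 to 0.20 on those of C57Bl/6N, and -0.29 on C57Bl/6N sham 1. Its summed level was 47181 to 51297 in C57Bl/6J sham, 45169 to 50097 in C57Bl/6J with angiotensin II, 41490 to 45270 in C57Bl/6N sham and 42790 to 50633 in C57Bl/6N with angiotensin II. The part of blood or fat in the members' values was not tested.

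Macrophage markers rose with angiotensin II in C57Bl/6N, where Stard10 alone of the members passed. All 7 tested rose there and none in C57Bl/6J. Their median was 1.10, 0.84, 1.10 and 0.23 on C57Bl/6N angiotensin II 1, 2, 3 and 4, in which the members' medians were -0.66, -0.53, -0.69 and -0.24. Their summed level was 5800 to 6687 in C57Bl/6J sham, 5456 to 6998 in C57Bl/6J with angiotensin II, 4657 to 6194 in C57Bl/6N sham and 6727 to 15716 in C57Bl/6N with angiotensin II. On C57Bl/6N sham 1, the lowest array for 4 members, the macrophage median was -0.03. The part of these cells in the members' values was not tested, and that of any atrial tissue was not tested either.

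Genes outside the list whose profile over the 14 arrays was most like the members' median had r from 0.865 to 0.903, over arrays that share the group structure. The 10 closest rows were Nenf, Sgk3, 1700021C14RIK, Atp5h, Dnajc19, Ndufa13, Gpx4, Ddit3, Ccl27 and Chchd7. They moved far less than the members: their SD over the arrays was 0.15 to 0.36, against 0.43 to 0.95 for the 6 members. All of them but Ddit3 were lowest on C57Bl/6N sham 1, the array of next lowest weight, as Sln, Myl7, Mybphl and Myl4 were. How far the likeness rests on that array was not tested. Nenf, the closest at 0.903, was at -0.27 between the substrains under angiotensin II (adjusted p = 0.196), and none of the 10 passed there, in sham, or with angiotensin II in either substrain. The members themselves correlated with their own median at 0.743 (Stard10) to 0.982 (Mybphl), a figure that contains each member.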

How the data were processed

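RNA of 14 left ventricles' samples was hybridised to Illumina arrays. For each of 18138 rows the authors deposited a linear signal intensity and a detection p-value, together with a value table of 18132 rows. That table had a median of 91.6 in each column and matched a quantile normalisation of the deposited intensity, so it is linear and uncentred. Per the labels' protocols, RNA was column-purified with DNase I and converted to biotin-labelled cRNA. Array model and scanner software: not given in the sources used here.

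In 14082 rows the detection p-values were multiples of 1 step (798 steps in all, within 0.2%), read as ranks among negative controls. From these, each array's background mean and SD (11.6 to 18.5) were inferred. Intensities were corrected by a normal-exponential model with limma 3.58.1 in R 4.3.3, given an offset of 16, quantile normalised and put on log2, which understates the change of dim genes. Rows with a detection p under 0.05 on at least 3 arrays (9408, 51.9%) were tested in 1 limma fit (lmFit, contrasts.fit, eBayes) with 4 group means, 10 residual and 4.8 prior degrees of freedom, and Benjamini-Hochberg adjustment over all tested rows. "Passed", "rose" and "fell" mean an adjusted p under 0.05. Those of Stard10 and Dkk3 were not such multiples, possibly because several probes were combined. Above background means a detection p under 0.05 or, for rows that were not such multiples, a signal no lower than that of the dimmest row so detected on that array. Precision is limited by how many arrays there are.

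Correlations and motif matches were computed in Python 3.11.15 with numpy 2.4.6 and scipy 1.17.1. The correlation test was tried on simulated data. The members and the 18 marker lists were chosen with earlier results of these data known. Named genes were the 7 members, 11 set genes, up to 4 genes per list past the threshold by size of change, and the 10 rows most like the members' median. Genes named as absent, as not passing or as relatives of a member fall outside that rule and were chosen after their values were seen. 7 list genes were matched through older names. Alternatives covered background, scaling, offset, filters, array weights, the arrays in the fit and each array left out. Leaving out both arrays of lowest weight was added after the data were seen.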

Additional observations from a re-analysis of the deposited data

Results flagged for a closer look

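Myl7 on C57Bl/6N angiotensin II 1 was at 10.09 on the log2 scale, below the other 3 arrays of its group (10.18 to 10.20), a gap of 0.871 of the group's range, past Dixon's 95% critical value for 4 samples. The gap is under 0.1 log2 units, in a group with one of the smallest spreads of the series. It was 1 of 14 sets of 4 values examined, and chance marks about 1 in 20.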

How the results depend on the processing

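No paired analysis was possible because the labels give no replicate numbers that the groups share. Over the 990 combinations of a member's difference and an alternative, 899 kept direction and side of the threshold, 38 newly passed, 17 no longer passed and 36 changed sign; where no cause is named, the cause was not tested. With array weights the members that passed numbered 1 in C57Bl/6J, 3 in C57Bl/6N, 5 for the difference between responses, 6 between substrains under angiotensin II and 2 for the substrain average. With only the compared groups in the fit 5 passed between substrains under angiotensin II, and with C57Bl/6J angiotensin II 1 and C57Bl/6N sham 1 both left out 4 passed in C57Bl/6N and 5 between substrains under angiotensin II. For the treatment average 0 passed with the background taken from all rows and 0 with no filter. Signs turned with array weights for Stard10 in C57Bl/6J (0.064), Myl4 in C57Bl/6N (-0.44), the sham difference of Myl4 (0.10), Myl7 (0.27), Sln (0.34), Mybphl (0.46) and Dkk3 (0.10), and the treatment average of Myl7 (-0.072) and Mybphl (-0.11). With both arrays left out they turned for Myl4 in C57Bl/6N (-0.39), the sham difference of Myl4 (0.077), Myl7 (0.30), Sln (0.40) and Mybphl (0.37), and the treatment average of Myl7 (-0.19) and Mybphl (-0.17). Dkk3 in C57Bl/6N was at 0.024 with the background taken from all rows and at 0.0081 after median scaling.

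Leaving out 1 array at a time gave 1 to 4 members past the threshold in C57Bl/6N, 1 to 5 between substrains under angiotensin II, 0 to 1 for the treatment average, 0 to 4 for the substrain average and 0 to 11 correlated pairs. In C57Bl/6J, Stard10 ran from -0.15 to 0.064. In C57Bl/6N, Myl4 ran from -0.39 to 0.47, Myl7 from -0.94 to 0.40, Sln from -1.56 to 0.12 and Dkk3 from -0.32 to 0.19. The sham difference ran from -0.78 to 0.077 for Myl4, -1.04 to 0.30 for Myl7, -1.28 to 0.40 for Sln, -0.70 to 0.37 for Mybphl and -0.38 to 0.017 for Dkk3. The treatment average ran from -0.15 to 0.52 for Myl7, -0.16 to 0.37 for Mybphl and -0.66 to 0.19 for Sln.

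Over all rows, 129 passed in C57Bl/6J (67 with the background taken from all rows, 75 with no filter, 559 with weights, 70 with the compared groups only), 1634 in C57Bl/6N (2665 with weights), 869 between substrains under angiotensin II (2240 with weights, 249 with the compared groups only), 1487 for the treatment average (2619 with weights) and 187 for the substrain average (113 with the background taken from all rows, 1145 with weights). For the difference between responses 1 passed (0 on the deposited values, 569 with weights), and in sham 2 (4 with the background taken from all rows, 30 with weights, 5 with both arrays left out, 1 with the compared groups only). Median scaling moved the share of higher calls from 72.9% to 47.8% in C57Bl/6J and from 59.0% to 78.1% between substrains under angiotensin II. Bmp10 and other dim rows are limited by signal over background.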
